A study of Mus musculus with 21 samples.

Results

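The genes described here encode the working parts of the lysosome: 16 acid hydrolases, 3 soluble cofactors and carriers of the lysosomal lumen, 8 membrane proteins and 11 subunits or accessory subunits of the proton pump, 38 genes in all. They were taken as a fixed list of gene symbols, without the cathepsins, and followed through splenic dendritic cells (DCs) and lymphocytes of the mouse. Of the 38 genes, 36 had a probe set that the platform annotation gives to that gene alone, and all 36 were among the 13284 genes tested. Cd63, a tetraspanin of the lysosomal membrane, and Atp6v0c, the subunit that forms the rotating ring of the pump, had no such probe set and were not analysed here. The 36 genes held 86 of the 45101 probe sets, of which 77 passed the filter on low signals, and 23 genes had more than 1 passing probe set. The brightest passing probe set stood for each gene.

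Lysosomes are the acidic organelles in which endocytosed, phagocytosed and autophagic cargo is broken down. Soluble hydrolases cut glycans, lipids, sulfate esters and proteins, cofactor proteins lift lipids out of membranes or help enzymes reach them, and a coat of glycosylated membrane proteins holds the compartment together and exports its products. The vacuolar ATPase (V-ATPase) acidifies the lumen by pumping protons through its membrane sector V0 with energy from ATP cleaved by its cytosolic sector V1. In DCs the rate at which this machinery degrades antigen bears on how much peptide is left for presentation to T cells.

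Cells sorted from mouse spleen were profiled on 21 Affymetrix arrays, 3 for each of 7 groups. DCs sorted with the 33D1 antibody, which per the series design recognises the CD8-negative, CD11c-high kind, and DCs sorted with the DEC205 antibody came from C57BL/6 mice injected with Flt3L Melanom (the labels' spelling) and killed on days 10 to 12, and from wild-type C57BL/6 mice. Flt3L is the ligand of the receptor Flt3 and expands DCs, and as labelled the ligand and the melanoma came together, so their parts cannot be told apart. B cells, CD8 T cells and CD4 T cells came from wild-type mice. Each array held RNA pooled from 20 mice for DCs of Flt3L mice, from 40 to 80 mice for wild-type DCs and from 5 to 8 mice for lymphocytes. The description field of the lymphocyte samples calls them DCs, and the groups were taken from the titles. The labels do not say whether the pools of a group were independent, so p-values measure only the spread between these arrays, which may be technical. No age is given in the labels used here.

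Sort markers lay on the side of their labels. Ly75, the DEC205 antigen, was dimmer in 33D1 than in DEC205 DCs of wild-type mice by a log2 difference of -3.82 ± 0.22 (SE), and Cd8a by -6.08 ± 0.33. Itgax, which encodes CD11c, was higher in wild-type DCs than in lymphocytes by 5.91 ± 0.20. Of the arrays, 2 held some transcripts of the other subset. Replicate 3 of wild-type DEC205 DCs had a Tgm2 signal of 1412.7 against 254.9 and 319.5 on the other arrays of its group, where 33D1 DCs had 17268.0 to 18660.3. Replicate 3 of 33D1 DCs from Flt3L mice had a Rab7b signal of 527.1 against 74.6 and 75.0, where DEC205 DCs had 10195.7 to 10968.5. Counts that move by more than 1.5 times without both arrays are given with that value. B cell replicate 3 had a signal of 8361.7 for the plasma cell marker Jchain, against 337.3 and 321.8 on replicates 1 and 2. Of the other listed plasma cell markers, Prdm1 was also highest there (390.4, against 235.6 and 166.1), and Sdc1 and Tnfrsf17 were not. Where both arrays are left out below, these are the 2 DC arrays. In bulk RNA of sorted cells, fewer cells of a type and less RNA per cell cannot be told apart.

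All values are probe set signals on the linear scale made by MAS5, scaled to one overall brightness per array before deposit. Differences are between group means of log2(signal + 48.6) with their standard errors (SE), from 1 limma fit over all 21 arrays, and a gene was called at a Benjamini-Hochberg adjusted p under 0.05 over the 13284 genes. Because every probe set binds with its own efficiency, levels are compared between groups for a gene and not between genes.

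The hydrolases and the lumenal cofactors varied most across the 7 groups, and the proton pump least. The gap between the highest and the lowest group mean had a median of 2.11 on the log2 scale for the 16 hydrolases, 2.61 for the 3 cofactors and carriers, 1.12 for the 7 membrane proteins and 0.79 for the 10 V-ATPase genes, against 0.89 for all genes tested. DEC205 DCs held the highest group mean of 18 of the 36 genes, 6 of them in Flt3L mice and 12 in wild-type mice. 33D1 DCs held the highest mean of 7 genes (2 in Flt3L mice, 5 in wild-type mice), B cells of 5, CD8 T cells of 3 and CD4 T cells of 3. These are orders of means, with no test. The highest group was not counted over all genes tested, so the counts are a description only.

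**Figure D1:**
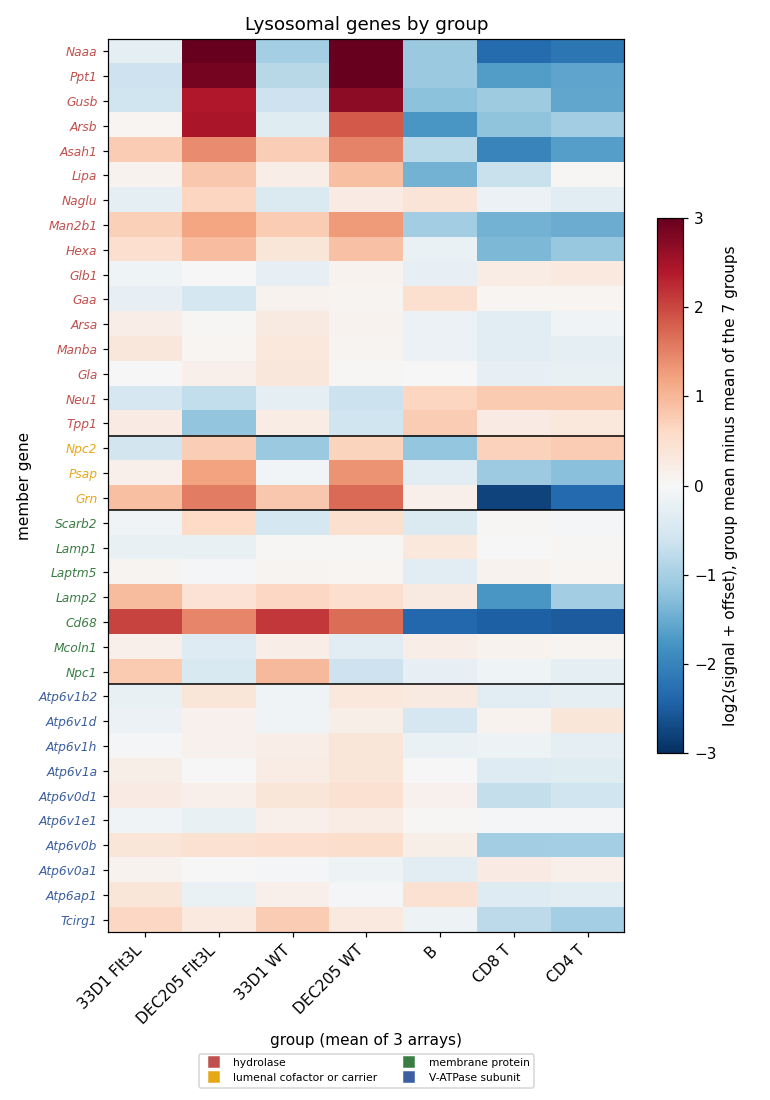
Mean log2(signal + 48.6) of each group of 3 arrays minus the mean of the 7 groups, for 36 lysosomal genes (rows, coloured by class and ordered within it by the wild-type subset difference). Red is above and blue below the gene's own mean, and colours stop at 3 log2 units either way. Naaa, Ppt1, Gusb and Arsb are red in both DEC205 columns and pale or blue in both 33D1 columns, whereas the V-ATPase rows stay pale across the DC columns.

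The first question was how the subsets differ in their lysosomal genes. Among the 36 genes, hydrolases and their cofactors were mostly lower in 33D1 than in DEC205 DCs. Naaa was at 0.044 of its DEC205 mean signal in wild-type mice. The 14 other hydrolases and cofactors of a second list, given further on, did not lean this way. Of those, 2 were lower and 3 higher in Flt3L mice, and 2 lower and 4 higher in wild-type mice. The membrane proteins called among the 36 genes were mostly higher in 33D1 DCs. However, the calls of Mcoln1, Cd68 and Lamp2 were lost without both arrays that held transcripts of the other subset. Npc1 (higher) and Scarb2 (lower) kept theirs. No pump gene among the 36 differed by more than 0.59 on the log2 scale. In Flt3L mice 15 of the 36 genes were lower and 6 higher in 33D1 DCs, where 11.8% of all genes tested were called lower and 11.7% higher. In wild-type mice 15 were lower and 4 higher, where 11.8% of all genes were called lower and 11.3% higher. The median log2 difference of the 36 genes was -0.10 in Flt3L and -0.11 in wild-type mice, against 0.04 in both for all genes tested. Without both arrays that held transcripts of the other subset, 3 genes were higher in Flt3L and 2 in wild-type mice, and 13 were lower in each.

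By class, 9 of the 16 hydrolases were lower and 1 was higher in 33D1 DCs, the same counts in Flt3L as in wild-type mice. The 3 cofactors and carriers were lower in both. Of the 7 membrane proteins, 1 was lower in both, 4 were higher in Flt3L and 2 in wild-type mice. Of the 10 V-ATPase genes, 2 were lower and 1 higher in each. In all, 15 genes were lower in both kinds of mice, 3 were higher in both, 3 were called in Flt3L mice only, 1 in wild-type mice only and 0 were called in opposite directions. Without both arrays that held transcripts of the other subset, Npc1 (higher) and Scarb2 (lower) were the only membrane proteins called, in both kinds of mice. Of the pump genes, Atp6v1b2 (lower) and Atp6ap1 (higher) were then called in Flt3L mice. No pump gene was then called in wild-type mice. Of the hydrolases, Hexa was then no longer called in Flt3L mice.

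**Figure D2:**
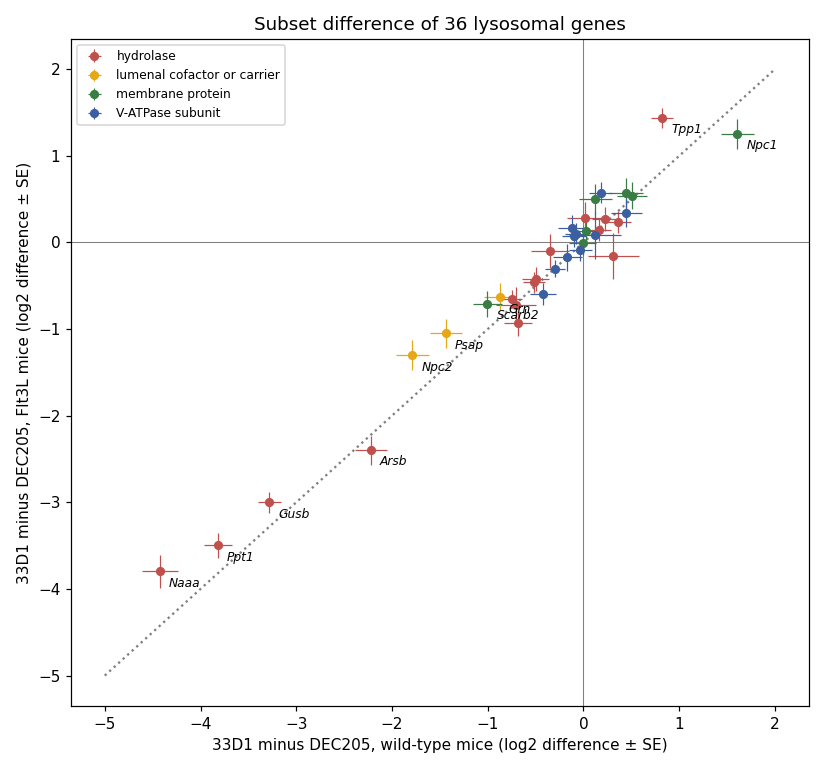
Log2 difference of 33D1 minus DEC205 DCs in Flt3L mice (vertical axis) against the same in wild-type mice (horizontal axis) for 36 lysosomal genes, with standard errors. The dotted line marks equal differences, and colours give the class. Naaa, Ppt1, Gusb and Arsb lie at the lower left, Npc1 and Tpp1 at the upper right, and the V-ATPase genes between -0.59 and 0.57 on both axes.

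Naaa, an amidase of the lysosome that hydrolyses N-acylethanolamines such as palmitoylethanolamide, differed most between the subsets. Its signals were 1098.8, 1570.7 and 2124.3 in 33D1 DCs and 19966.6, 24415.1 and 22107.7 in DEC205 DCs of Flt3L mice. In wild-type mice they were 816.5, 1014.9 and 946.9 in 33D1 DCs and 18955.2, 23461.8 and 20235.4 in DEC205 DCs. Every 33D1 array lay far below every DEC205 array, and among the 33D1 arrays of Flt3L mice replicate 3, the array with the raised Rab7b signal, was the highest. The log2 difference was -3.80 ± 0.19 (adjusted p = 2.24e-12) in Flt3L and -4.42 ± 0.19 (adjusted p = 2.42e-13) in wild-type mice. B cells had 852.5, 818.2 and 919.2, CD8 T cells 306.9, 458.5 and 294.8 and CD4 T cells 490.5, 386.2 and 303.0. The wild-type 33D1 arrays overlapped the B cell arrays for this gene, and the 33D1 arrays of Flt3L mice lay above both.

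Ppt1, the palmitoyl-protein thioesterase that takes fatty acids off proteins under degradation and is mutated in an infantile ceroid lipofuscinosis in humans, was also far dimmer in 33D1 than in DEC205 DCs. In Flt3L mice 33D1 DCs had 1609.9, 1896.0 and 2423.6 and DEC205 DCs 18552.2, 25877.9 and 23750.6. Wild-type 33D1 DCs had 1586.8, 1932.3 and 1532.9 and wild-type DEC205 DCs 20771.3, 28477.3 and 24214.8. The lowest DEC205 array had 18552.2 and the highest 33D1 array 2423.6. The difference was -3.50 ± 0.15 (adjusted p = 2.36e-13) in Flt3L and -3.82 ± 0.15 (adjusted p = 6.31e-14) in wild-type mice. B cells had 1396.7, 1279.7 and 1454.7, CD8 T cells 841.4, 917.7 and 1002.8 and CD4 T cells 1012.4, 1029.7 and 920.9. All lymphocyte arrays thus lay below all 33D1 arrays for Ppt1, by a margin that was small beside the gap to DEC205 DCs.

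Gusb, the beta-glucuronidase that trims glucuronic acid from glycosaminoglycans and is a classical enzyme marker of lysosomes, showed a gap of like size. The arrays of Flt3L mice gave 1289.9, 1236.5 and 1323.9 in 33D1 DCs and 11824.1, 9273.5 and 10857.0 in DEC205 DCs. Wild-type 33D1 DCs had 1423.7, 1047.1 and 1388.6, against 12976.5, 12950.0 and 12562.2 in DEC205 DCs. No array of one subset came near those of the other. The log2 difference was -3.00 ± 0.12 (adjusted p = 2.03e-13) in Flt3L and -3.28 ± 0.12 (adjusted p = 3.34e-14) in wild-type mice. Lymphocyte signals of Gusb were 879.9, 743.8 and 812.4 in B cells, 873.9, 874.5 and 997.0 in CD8 T cells and 618.1, 728.0 and 580.7 in CD4 T cells, all below the lowest 33D1 array.

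Arsb, the arylsulfatase that removes sulfate from dermatan and chondroitin sulfate, was the fourth hydrolase with a difference beyond 2 log2 units. Its mean signal was 2062 ± 496.0 in 33D1 and 10882 ± 581.6 in DEC205 DCs of Flt3L mice (SD, n = 3 each), a difference of -2.40 ± 0.17 (adjusted p = 3.41e-10). In wild-type mice the means were 1500.4 ± 262.9 in 33D1 and 7203 ± 1535 in DEC205 DCs (-2.22 ± 0.17).

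Smaller differences in the same direction were found for 5 further hydrolases. Asah1, the acid ceramidase, had 5302.5, 6314.0 and 6051.8 in 33D1 and 9469.7, 9288.1 and 9019.6 in DEC205 DCs of Flt3L mice (-0.65 ± 0.10, adjusted p = 4.87e-05), and 6225.1, 6146.5 and 5120.2 in 33D1 and 10172.4, 9525.9 and 9685.2 in DEC205 DCs of wild-type mice (-0.75 ± 0.10). Man2b1, the lysosomal alpha-mannosidase, had 11214.0, 14035.0 and 13598.6 in 33D1 and 16471.9, 18381.3 and 18505.4 in DEC205 DCs of Flt3L mice (-0.46 ± 0.12, adjusted p = 0.00521). In wild-type mice Man2b1 had 13544.1, 14354.5 and 11761.1 in 33D1 and 18876.7, 18868.6 and 18888.6 in DEC205 DCs (-0.52 ± 0.12). For both genes the subsets did not overlap, but the gap was a fraction of that of Gusb. Averaged over its passing probe sets, Man2b1 was no longer called in Flt3L mice (-0.35, adjusted p = 0.172) or in wild-type mice (-0.34, adjusted p = 0.196). Naglu, which removes N-acetylglucosamine from heparan sulfate, was lower by -0.93 ± 0.14 in Flt3L and -0.68 ± 0.14 in wild-type mice. Lipa, the acid lipase for cholesteryl esters and triglycerides, was lower by -0.72 ± 0.21 and -0.71 ± 0.21 in the same order, and Hexa, the alpha chain of beta-hexosaminidase, by -0.42 ± 0.14 and -0.50 ± 0.14. Lipa lost its call in Flt3L mice without 33D1 replicate 2 or DEC205 replicate 1 (adjusted p up to 0.109) and in wild-type mice without 33D1 replicate 2 or 3 or DEC205 replicate 1 (up to 0.115). Hexa lost it in Flt3L mice without 33D1 replicate 1 or 3 or DEC205 replicate 2 or 3 (adjusted p up to 0.158) and in wild-type mice without 33D1 replicate 3 (0.0503). In Flt3L mice Hexa also lost it without both arrays that held transcripts of the other subset (-0.44, adjusted p = 0.0682).

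Tpp1, the tripeptidyl peptidase that takes tripeptides off the ends of proteins, was the only hydrolase called higher in 33D1 DCs. Its signals were 2880.3, 2975.8 and 2565.2 in 33D1 and 1169.2, 917.7 and 942.3 in DEC205 DCs of Flt3L mice (1.44 ± 0.12, adjusted p = 3.27e-09). Wild-type mice gave 2568.7, 2997.8 and 2605.1 in 33D1 and 1588.0, 1347.6 and 1639.0 in DEC205 DCs (0.82 ± 0.12, adjusted p = 1.17e-05). The 33D1 arrays of both kinds of mice lay between 2565.2 and 2997.8, and the DEC205 arrays were lower in Flt3L than in wild-type mice. Tpp1 and Ppt1, whose human genes are both mutated in childhood ceroid lipofuscinoses, thus differed between the subsets in opposite directions.

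The other 6 hydrolases were not called between the subsets. For Gla, an alpha-galactosidase, the wild-type difference was 0.31 ± 0.27, for Glb1, a beta-galactosidase, -0.35 ± 0.20, and for Gaa, the acid alpha-glucosidase that breaks down glycogen, 0.02 ± 0.19. Arsa, the arylsulfatase for sulfatides, gave 0.16 ± 0.13 and Manba, a beta-mannosidase, 0.23 ± 0.14. Neu1, the lysosomal sialidase, had 402.6, 431.0 and 461.0 in 33D1 and 396.6, 303.1 and 383.5 in DEC205 DCs of Flt3L mice (0.23 ± 0.13). In wild-type mice Neu1 had 515.9, 573.5 and 448.3 in 33D1 and 394.0, 419.4 and 349.0 in DEC205 DCs. The wild-type arrays did not overlap, yet the difference of 0.36 ± 0.13 missed the threshold (adjusted p = 0.052), with adjusted p = 0.0496 at an offset of 16.

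The 3 lumenal helpers of the hydrolases were lower in 33D1 DCs. Npc2, the small carrier that binds cholesterol in the lumen and hands it to Npc1, had 5596.8, 9372.8 and 8004.8 in 33D1 and 16958.7, 21341.2 and 17698.1 in DEC205 DCs of Flt3L mice (-1.30 ± 0.17, adjusted p = 4.72e-06). Wild-type mice gave 5476.4, 5570.6 and 4195.5 in 33D1 and 16672.8, 17792.6 and 18154.1 in DEC205 DCs (-1.79 ± 0.17, adjusted p = 5.2e-08). No 33D1 array reached a DEC205 array. Psap, the precursor of the saposins that present sphingolipids to their hydrolases, averaged 15263 ± 3338 in 33D1 and 31639 ± 6316 in DEC205 DCs of Flt3L mice (-1.05 ± 0.17), and 12729 ± 825.7 in 33D1 and 34835 ± 5452 in DEC205 DCs of wild-type mice (-1.44 ± 0.17). Grn, the progranulin that binds prosaposin and is cut into granulins in the lysosome, averaged 13788 ± 1752 in 33D1 and 21357 ± 2057 in DEC205 DCs of Flt3L mice (-0.63 ± 0.16), and 13038 ± 950.2 in 33D1 and 24038 ± 2572 in DEC205 DCs of wild-type mice (-0.88 ± 0.16).

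Among the membrane proteins the largest difference ran the other way. Npc1, the membrane transporter that receives cholesterol from Npc2 and moves it out of the lysosome, had 1365.7, 973.4 and 932.7 in 33D1 and 422.6, 467.8 and 381.4 in DEC205 DCs of Flt3L mice (1.25 ± 0.17, adjusted p = 7e-06). Wild-type mice gave 1275.8, 1230.3 and 1183.7 in 33D1 and 481.6, 326.9 and 324.6 in DEC205 DCs (1.60 ± 0.17, adjusted p = 2.16e-07). The partners of this cholesterol route therefore differed in opposite directions, with Npc1 higher and Npc2 lower in 33D1 DCs. Lymphocyte signals of Npc1, 487.2, 465.0 and 543.4 in B cells, 484.7, 526.0 and 627.5 in CD8 T cells and 415.5, 470.4 and 607.1 in CD4 T cells, overlapped the DEC205 arrays and lay below all 33D1 arrays.

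Mcoln1, the calcium channel TRPML1 of late endosomes and lysosomes, had 889.6, 974.6 and 991.4 in 33D1 and 490.1, 699.3 and 756.1 in DEC205 DCs of Flt3L mice (0.54 ± 0.15, adjusted p = 0.0119). In wild-type mice it had 902.8, 974.8 and 1067.9 in 33D1 and 636.1, 710.0 and 684.2 in DEC205 DCs (0.50 ± 0.15, adjusted p = 0.0189). The groups did not overlap, but the call was lost without both arrays named above (adjusted p = 0.053 in Flt3L and 0.0532 in wild-type mice) and without DEC205 replicate 1 (adjusted p = 0.106 in Flt3L and 0.0719 in wild-type mice). Scarb2, the receptor LIMP-2 that carries glucocerebrosidase to the lysosome, was lower in 33D1 DCs by -0.71 ± 0.15 in Flt3L and -1.0 ± 0.15 in wild-type mice.

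Cd68, a heavily glycosylated lysosomal protein used as a marker of phagocytes, had 5952.1, 5652.9 and 5810.6 in 33D1 and 3852.8, 4133.9 and 3728.8 in DEC205 DCs of Flt3L mice, which was called (0.57 ± 0.18, adjusted p = 0.021), though not without both arrays named above (adjusted p = 0.0652). In wild-type mice Cd68 had 6685.0, 6304.2 and 5733.7 in 33D1 and 4619.5, 4407.0 and 4656.4 in DEC205 DCs. These arrays did not overlap either, and the difference of 0.45 ± 0.18 was not called (adjusted p = 0.0746). Lamp2, a lysosomal coat protein that also serves chaperone-mediated autophagy, was likewise called in Flt3L mice only (0.50 ± 0.17, adjusted p = 0.0339, against 0.12 ± 0.17 in wild-type mice), and lost the call without both arrays (0.52, adjusted p = 0.0784) and as the mean of its probe sets (0.16, adjusted p = 0.54). Lamp1, the other major coat protein, and Laptm5, a lysosomal membrane protein of blood cells, were not called. The difference of Lamp1 was -0.01 ± 0.14 in Flt3L and -0.01 ± 0.14 in wild-type mice, and that of Laptm5 was 0.13 ± 0.13 and 0.02 ± 0.13.

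The 10 pump genes among the members differed less between the subsets than the leading hydrolases. In Flt3L mice the 10 differences ran from -0.59 to 0.57, and in wild-type mice from -0.42 to 0.45. Of the catalytic sector V1, Atp6v1b2, the regulatory B subunit that most cells use, was lower in 33D1 DCs by -0.59 ± 0.13 in Flt3L and -0.42 ± 0.13 in wild-type mice. Atp6v1d, a part of the central shaft, was lower by -0.30 ± 0.10 in Flt3L (adjusted p = 0.0381) and -0.30 ± 0.10 in wild-type mice (adjusted p = 0.041). Leaving out both arrays named above gave Atp6v1d adjusted p = 0.0837 in Flt3L and 0.0682 in wild-type mice, and Atp6v1b2 adjusted p = 0.0749 in wild-type mice. The catalytic A subunit Atp6v1a (-0.12 ± 0.15 in wild-type mice), the stalk subunit Atp6v1e1 (-0.08 ± 0.12) and the regulatory subunit Atp6v1h (-0.17 ± 0.15) were not called in either kind of mice.

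In the membrane sector V0, Tcirg1, the a3 subunit found in osteoclasts and in lysosomes of immune cells, was not called in Flt3L mice (0.34 ± 0.16, adjusted p = 0.137) and was called higher in 33D1 DCs of wild-type mice (0.45 ± 0.16, adjusted p = 0.0439), though without both arrays named above it was not called there either (adjusted p = 0.0887). Its relative Atp6v0a1, the a1 subunit, differed by 0.12 ± 0.27 in wild-type mice, the proteolipid subunit Atp6v0b by -0.03 ± 0.12 and the d1 subunit Atp6v0d1 by -0.10 ± 0.12, none of which was called. Atp6ap1, an accessory subunit needed to assemble the pump, had 4145.6, 5230.4 and 4132.4 in 33D1 and 3222.3, 2974.9 and 2802.3 in DEC205 DCs of Flt3L mice (0.57 ± 0.12, adjusted p = 0.000994). In wild-type mice it had 3875.5, 3597.5 and 4042.0 in 33D1 and 3487.9, 3381.2 and 3254.5 in DEC205 DCs, and the difference of 0.18 ± 0.12 was not called. For the genes called in 1 kind of mice only, the difference between the subset contrasts did not pass its own test, as given further on.

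**Figure D3:**
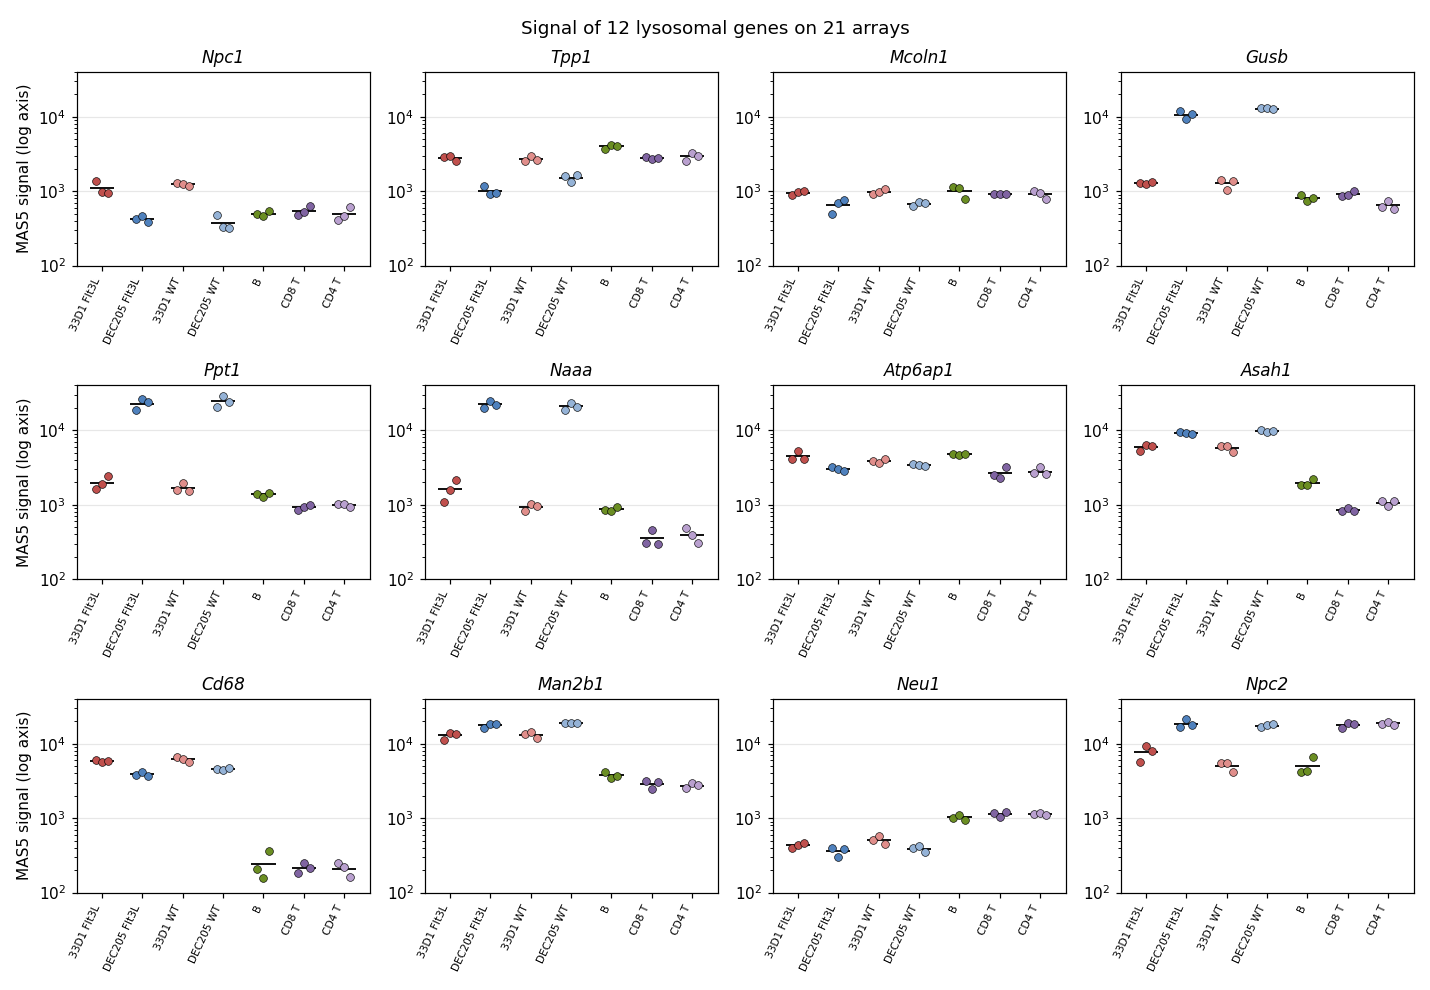
MAS5 signal (log axis) of 12 lysosomal genes on each of the 21 arrays, with a bar at the mean of the 3 arrays of a group; Flt3L marks the injected mice and WT the wild-type mice. Gusb, Ppt1 and Naaa are high in both DEC205 groups and far lower in both 33D1 groups, Npc1 and Tpp1 are lower in DEC205 than in 33D1 DCs, and Cd68 is at 3728.8 or more on every DC array and at 360.2 or less on every lymphocyte array.

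Markers of macrophages and monocytes, which carry many lysosomes, were measured beside these genes. Of the 13 listed markers, 12 had a probe set, and their summed signal ran from 11263.1 to 14377.2 over the 33D1 arrays and from 8692.1 to 9524.2 over the DEC205 arrays of Flt3L mice. In wild-type mice the sums were 12904.5 to 18894.0 in 33D1 and 9198.3 to 13709.5 in DEC205 DCs, and over lymphocytes 1281.8 to 2811.3. The sums of the subsets did not overlap in Flt3L mice and overlapped in wild-type mice, and the members of the list did not move together. Adgre1 (3.15 ± 0.25) and Csf1r (2.40 ± 0.25) were higher in wild-type 33D1 DCs, and Lyz2 (-1.88 ± 0.39), Vcam1 (-1.38 ± 0.30) and Hmox1 (-3.09 ± 0.37) were lower. Of the defining genes of splenic macrophages, Cd5l had 110.9 to 175.4 in 33D1 and 128.2 to 166.7 in DEC205 DCs of wild-type mice, Marco stayed at or below 36.5 on every DC array, and C1qa stayed at or below 21.9 on every DC array other than wild-type DEC205 replicates 1 and 3 (204.5 and 205.5). The part of other cells in the subset differences was not tested.

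Other genes of the lysosomal pathway were taken from a second list of hydrolases, membrane proteins, pump subunits and sorting factors, of which 52 were tested. In Flt3L mice 12 were lower and 10 higher in 33D1 than in DEC205 DCs, and in wild-type mice 12 lower and 9 higher. Over all genes tested, 11.8% were called lower in each, with 11.7% higher in Flt3L and 11.3% in wild-type mice. Lower in 33D1 DCs with the smallest adjusted p were Laptm4b, a tetraspan lysosomal protein (-3.00 ± 0.16 in Flt3L and -3.51 ± 0.16 in wild-type mice), Fuca1, the alpha-fucosidase (-1.63 ± 0.12 and -2.24 ± 0.12), and Slc11a1, the metal ion transporter NRAMP1 of phagosomes (-3.39 ± 0.23 and -3.45 ± 0.23). Higher were Acp5, the tartrate-resistant acid phosphatase (2.79 ± 0.17 in Flt3L and 2.36 ± 0.17 in wild-type mice), Slc15a3, a peptide and histidine transporter (2.60 ± 0.30 and 2.23 ± 0.30), and Cd164, a sialomucin (0.89 ± 0.14 and 1.15 ± 0.14). Of the 14 other hydrolases and cofactors on this list, 2 were lower and 3 higher in 33D1 DCs of Flt3L mice, and 2 lower and 4 higher in those of wild-type mice. Atp6v0a2, the a2 subunit of the pump and 1 of 8 further pump genes on the list, averaged 719.1 ± 22.7 in 33D1 and 2108.1 ± 23.0 in DEC205 DCs of Flt3L mice (SD, n = 3 each; -1.49 ± 0.14). In wild-type mice Atp6v0a2 averaged 536.1 ± 63.2 in 33D1 and 2152 ± 211.5 in DEC205 DCs (-1.91 ± 0.14), a larger difference than that of any pump gene among the members. Of the 8 pump genes, 2 were lower and 0 higher in 33D1 DCs, in Flt3L as in wild-type mice.

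Promoters were read for 34 of the 38 genes (39 windows), each window running from 250 bases before to 50 bases after the start given by RefSeq on GRCm38.p6. Asah1, Npc1, Atp6v1b2 and Atp6v1h were not matched. The transcription factor TFEB, which switches on lysosomal genes in starved cells, is known to bind elements built around the palindrome CACGTG, so this motif and the longer palindrome TCACGTGA, which contains it, were searched on both strands. CACGTG was found in 10 of the 39 windows (25.6%), against 7.15% of 32851 windows of all genes and 9.35% of the 13627 windows of genes tested. TCACGTGA was found in 4 windows (10.3%), against 0.97% and 1.66%. The median GC content was 56.3% in the members' windows and 60.0% in those of genes tested. Holding CACGTG were Arsa, Gaa, Gla, Glb1, Naglu, Lamp1, Mcoln1, Atp6v0b, Atp6v0d1 and Atp6v1a.

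The windows of 3 genes with the motif, a coat protein with 4 copies, a channel and a pump subunit, are shown first with CACGTG in capitals. Those of the 3 hydrolases with the largest subset differences follow, in which neither motif was found. All are written 5′ to 3′ along the gene. Lamp1 lies at chr8:13158911-13159210 (plus strand), Mcoln1 at chr8:3500269-3500568 (plus strand), Atp6v0d1 at chr8:105566015-105566314 (minus strand), Naaa at chr5:92278132-92278431 (minus strand), Ppt1 at chr4:122835977-122836276 (plus strand) and Gusb at chr5:130003000-130003299 (minus strand).
Lamp1: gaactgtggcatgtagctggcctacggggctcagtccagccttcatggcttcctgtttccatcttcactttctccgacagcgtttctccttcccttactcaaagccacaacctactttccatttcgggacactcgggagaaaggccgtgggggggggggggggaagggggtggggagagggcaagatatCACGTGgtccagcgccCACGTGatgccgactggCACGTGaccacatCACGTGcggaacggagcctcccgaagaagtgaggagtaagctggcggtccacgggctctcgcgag
Mcoln1: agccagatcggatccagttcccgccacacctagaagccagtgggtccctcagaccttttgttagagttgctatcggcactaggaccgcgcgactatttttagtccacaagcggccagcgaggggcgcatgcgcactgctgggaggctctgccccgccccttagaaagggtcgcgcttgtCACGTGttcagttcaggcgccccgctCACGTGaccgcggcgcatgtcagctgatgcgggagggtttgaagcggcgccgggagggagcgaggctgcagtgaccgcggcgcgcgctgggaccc
Atp6v0d1: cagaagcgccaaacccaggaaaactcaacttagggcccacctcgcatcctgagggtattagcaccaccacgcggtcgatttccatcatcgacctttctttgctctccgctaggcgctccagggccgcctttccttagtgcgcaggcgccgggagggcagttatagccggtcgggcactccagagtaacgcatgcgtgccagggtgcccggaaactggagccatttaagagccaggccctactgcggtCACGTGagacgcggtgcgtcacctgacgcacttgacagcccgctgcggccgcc
Naaa: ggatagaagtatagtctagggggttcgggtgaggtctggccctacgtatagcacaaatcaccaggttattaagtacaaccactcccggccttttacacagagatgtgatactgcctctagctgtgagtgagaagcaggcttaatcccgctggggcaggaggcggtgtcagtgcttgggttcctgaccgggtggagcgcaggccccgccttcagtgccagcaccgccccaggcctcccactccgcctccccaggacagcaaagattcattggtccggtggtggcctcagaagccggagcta
Ppt1: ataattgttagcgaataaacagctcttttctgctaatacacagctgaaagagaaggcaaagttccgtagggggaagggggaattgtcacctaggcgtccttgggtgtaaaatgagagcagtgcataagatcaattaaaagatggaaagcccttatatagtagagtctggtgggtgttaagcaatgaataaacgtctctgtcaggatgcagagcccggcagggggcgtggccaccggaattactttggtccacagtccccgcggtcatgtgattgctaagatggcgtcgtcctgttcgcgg
Gusb: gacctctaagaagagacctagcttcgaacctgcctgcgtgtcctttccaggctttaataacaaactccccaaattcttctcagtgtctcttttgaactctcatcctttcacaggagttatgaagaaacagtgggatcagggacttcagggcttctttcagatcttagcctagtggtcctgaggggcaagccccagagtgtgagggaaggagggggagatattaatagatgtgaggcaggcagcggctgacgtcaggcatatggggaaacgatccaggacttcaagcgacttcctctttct

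Of the 10 tested genes whose window holds CACGTG, 2 were called in Flt3L mice, where 11.8% of all genes tested were called lower and 11.7% higher. They were Mcoln1 (higher in 33D1 DCs) and Naglu (lower), and the 10 differences lay between -0.93 and 0.54. Of the 22 tested genes with a window lacking the motif, 16 were called there, 12 of them lower, with differences between -3.80 and 1.44. In wild-type mice 2 of the 10 and 14 of the 22 were called. This is a description of the letters in these windows and says nothing of what binds there. Tfeb itself was higher in 33D1 DCs by 1.14 ± 0.27 in Flt3L and 1.03 ± 0.27 in wild-type mice.

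The second question was whether the injected mice differed from wild-type mice within a subset. Few lysosomal genes were called, and few of all genes tested were. In 33D1 DCs 0 of the 36 genes were called higher or lower by limma, where 0.851% of all genes tested were called higher and 0.158% lower. An unadjusted p under 0.05 was found for 1387 of the 13284 genes tested and for 5 of the 36. Naaa differed most of these 5, at 0.71 ± 0.19 (adjusted p = 0.0868). Its 33D1 signals in Flt3L mice of 1098.8, 1570.7 and 2124.3 all lay above the 816.5, 1014.9 and 946.9 of wild-type mice. Npc2 followed (0.57 ± 0.17, adjusted p = 0.149). Both passed only when replicate 1 of 33D1 DCs from Flt3L mice was left out (0.95, adjusted p = 0.014 for Naaa, and 0.78, adjusted p = 0.0308 for Npc2). Both genes were higher in DEC205 than in 33D1 DCs, and replicate 3 of that group held DEC205 transcripts, as given above. The part of these transcripts in the differences was not tested. Naaa was highest on replicate 3 of that group, but Npc2 was highest on replicate 2 (9372.8, against 8004.8 on replicate 3). Without replicate 3 the difference was 0.49 (adjusted p = 0.416) for Naaa and 0.52 (adjusted p = 0.406) for Npc2.

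In DEC205 DCs Tpp1 was called lower in Flt3L mice, and 0 genes were called higher, where 0.888% of all genes tested were lower and 1.22% higher. Tpp1 had 1169.2, 917.7 and 942.3 in Flt3L and 1588.0, 1347.6 and 1639.0 in wild-type mice, a difference of -0.58 ± 0.12 (adjusted p = 0.0114). The groups did not overlap. The call was lost without replicate 2 or 3 of DEC205 DCs from Flt3L mice (adjusted p = 0.08 and 0.0527) and without both arrays named above (-0.52, adjusted p = 0.0526). Tgm2 and Sirpa mark 33D1 DCs and, like Tpp1, were higher in 33D1 than in DEC205 DCs, whereas lymphocytes had Tpp1 with little of either. Both markers were lower in the DEC205 arrays of Flt3L mice too, by -1.60 ± 0.37 and -1.55 ± 0.34. Whether their presence has a part in the Tpp1 difference was not tested. Arsb (0.61 ± 0.17, adjusted p = 0.0643), Atp6v1e1 (-0.44 ± 0.12, adjusted p = 0.0521) and Gaa (-0.60 ± 0.19, adjusted p = 0.13) were among the 8 lysosomal genes with an unadjusted p under 0.05. Of the 13284 genes tested, 1651 had such a p. Arsb passed with quantile normalization (0.67, adjusted p = 0.0367) and without replicate 1 of wild-type DEC205 DCs (0.77, adjusted p = 0.0336). Atp6v1e1 passed with quantile normalization (-0.44, adjusted p = 0.0413) and without replicate 1 of DEC205 DCs from Flt3L mice (-0.55, adjusted p = 0.0216). The macrophage genes Csf1r (-0.96 ± 0.25), Vcam1 (-1.21 ± 0.30) and Hmox1 (-1.56 ± 0.37) were lower in Flt3L than in wild-type DEC205 DCs as well, and their part in these differences was not tested. Summed signals of 7 melanoma markers ran from 750.7 to 1085.1 over the DC arrays of Flt3L mice and from 681.6 to 1038.5 over those of wild-type mice.

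No lysosomal gene passed the test of whether the subset difference itself changed, that is, the difference in Flt3L mice minus that in wild-type mice. The limma fit called 0 of 36 in either direction, where 0.0903% of all genes tested were called higher and 0.0151% lower. An unadjusted p under 0.05 was found for 635 of the 13284 genes tested and for 3 of the 36. They were Tpp1 (0.62 ± 0.17, adjusted p = 0.251), Naaa (0.63 ± 0.27, adjusted p = 0.968) and Atp6ap1 (0.39 ± 0.17, adjusted p = 0.985). The genes called between subsets in 1 kind of mice only, Tcirg1, Lamp2, Cd68 and Atp6ap1, are therefore not shown to differ between the kinds of mice. Both contrasts between kinds of mice share arrays with the subset contrasts. In the wider list Tpcn1, a calcium channel of endolysosomes, was higher in Flt3L than in wild-type 33D1 DCs (1.46 ± 0.18), and Fuca1 (-0.66 ± 0.12), Laptm4b (-0.62 ± 0.16) and Sort1, a sorting receptor of the Golgi (-1.09 ± 0.23), were lower in Flt3L than in wild-type DEC205 DCs.

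The third question was how DCs differ from lymphocytes, set as the mean of both wild-type subsets against the mean of B cells, CD8 T cells and CD4 T cells. DCs had more RNA of most hydrolases, of Psap and Grn, and of most pump subunits. Of the 36 genes, 22 were higher and 3 lower in DCs, where 22.4% of all genes tested were called higher and 30.3% lower. The median log2 difference was 0.43 for the 36 genes and -0.12 for all genes tested, a shift that stood at -0.08 after median centring and -0.09 after quantile normalization. By class, 10 of 16 hydrolases were higher and 2 lower, 2 of 3 cofactors and carriers were higher and 1 lower, 3 of 7 membrane proteins were higher, and 7 of 10 V-ATPase genes were higher. In 11 of the 22 genes called higher, all DC arrays lay above all lymphocyte arrays. How often this holds over all genes tested was not counted, so the count is a description only.

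**Figure D4:**
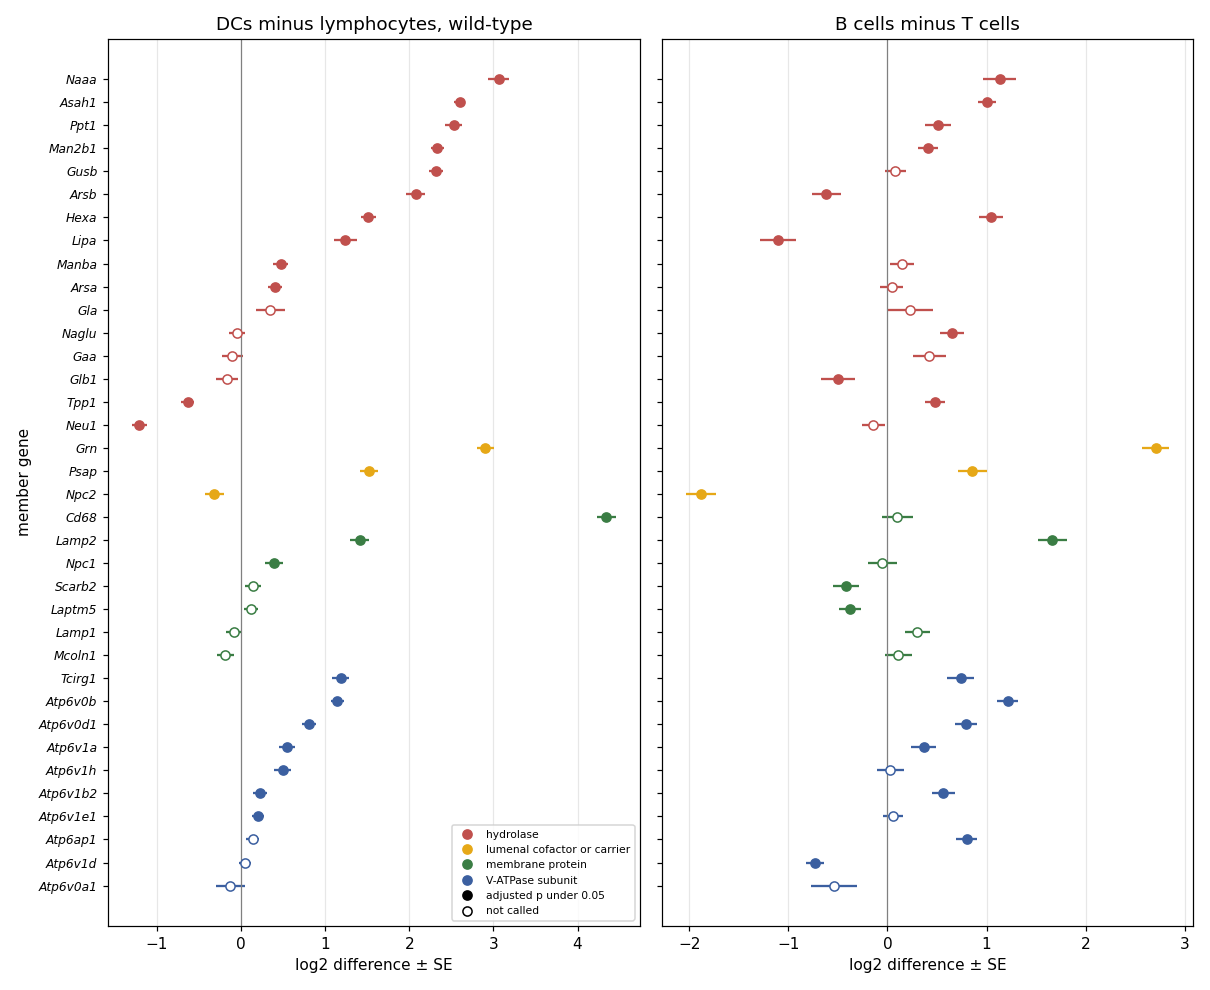
Log2 difference with its standard error for 36 lysosomal genes, coloured by class, in wild-type DCs minus lymphocytes (left) and in B cells minus T cells (right). Filled points were called and open points were not. Cd68 and Naaa lie furthest to the right on the left panel and Neu1 furthest to the left, and on the right panel Grn and Npc2 lie at the ends.

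Cd68 differed most, at 4.34 ± 0.11 (adjusted p = 1.89e-18). Against the wild-type DC signals given above, B cells had 206.9, 157.9 and 360.2, CD8 T cells 185.2, 253.3 and 212.2 and CD4 T cells 246.2, 221.8 and 159.6, so every DC array was more than 10 times as bright as every lymphocyte array. Asah1 followed in adjusted p (2.60 ± 0.07), with 1828.0, 1843.0 and 2205.5 in B cells, 827.0, 891.3 and 810.4 in CD8 T cells and 1111.4, 970.8 and 1102.7 in CD4 T cells, all below both DC subsets. Man2b1 (2.33 ± 0.08) had 4119.9, 3489.7 and 3672.0 in B cells, 3141.8, 2459.2 and 3104.3 in CD8 T cells and 2513.2, 2933.9 and 2764.5 in CD4 T cells. Naaa (3.06 ± 0.12), Ppt1 (2.52 ± 0.10) and Gusb (2.32 ± 0.08) were also higher, and their mean over DCs joins bright DEC205 arrays with 33D1 arrays that lay much nearer to the B cells. Arsb was higher in DCs by 2.07 ± 0.11, Hexa by 1.51 ± 0.09, Lipa by 1.24 ± 0.13, Manba by 0.47 ± 0.09 and Arsa by 0.40 ± 0.08. A dimmer probe set of Arsb was called in the opposite direction.

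The helpers Grn (2.90 ± 0.10) and Psap (1.51 ± 0.11) were higher in DCs. Lamp2 (1.41 ± 0.11) and Npc1 (0.39 ± 0.11) were the other membrane proteins called, while Scarb2 (0.14 ± 0.10), Laptm5 (0.11 ± 0.08), Lamp1 (-0.09 ± 0.09) and Mcoln1 (-0.19 ± 0.10) were not. For Npc1, only the wild-type 33D1 mean (1229.9) was above the lymphocyte means. The wild-type DEC205 mean (377.7) was below those of B cells (498.5), CD8 T cells (546.1) and CD4 T cells (497.7). Dimmer probe sets of Scarb2, Laptm5 and Mcoln1 were called, however. As the mean of its probe sets, Scarb2 was called higher (0.22, adjusted p = 0.0299) and Mcoln1 lower (-0.27, adjusted p = 0.00836) in DCs. Of the pump, Tcirg1 (1.18 ± 0.10), Atp6v0b (1.14 ± 0.08) and Atp6v0d1 (0.81 ± 0.08) of the membrane sector were higher by more than any subunit of the V1 sector. The V1 subunits Atp6v1a (0.55 ± 0.09), Atp6v1h (0.49 ± 0.10), Atp6v1b2 (0.23 ± 0.09) and Atp6v1e1 (0.20 ± 0.08) were higher by less, and the calls of Atp6v1b2 (adjusted p = 0.0689) and Atp6v1e1 (adjusted p = 0.067) were lost without both arrays named above. Atp6v1d (0.05 ± 0.07), Atp6ap1 (0.14 ± 0.08) and Atp6v0a1 (-0.13 ± 0.17) were not called.

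Neu1, Tpp1 and Npc2 were lower in DCs. Neu1 differed by -1.21 ± 0.08 (adjusted p = 4.87e-11), with 1016.5, 1114.9 and 936.3 in B cells, 1156.3, 1051.9 and 1196.6 in CD8 T cells and 1122.1, 1168.5 and 1086.8 in CD4 T cells, each above every DC array. Tpp1 (-0.64 ± 0.08) had 3689.1, 4226.3 and 4073.8 in B cells, 2895.2, 2689.4 and 2774.6 in CD8 T cells and 2553.3, 3205.2 and 3003.8 in CD4 T cells. These overlapped the 33D1 arrays in both T cell groups, and the DEC205 arrays were below them all. Npc2 (-0.32 ± 0.11, adjusted p = 0.02) had 4119.1, 4349.3 and 6564.6 in B cells, 16225.9, 18851.3 and 18292.2 in CD8 T cells and 18394.6, 19668.0 and 17966.5 in CD4 T cells. The T cell arrays overlapped those of DEC205 DCs and lay above all B cell and 33D1 arrays, and the call for DCs against lymphocytes was lost after median centring (-0.28, adjusted p = 0.0519), without replicate 3 of wild-type 33D1 DCs (-0.26, adjusted p = 0.0725) and as the mean of its probe sets (-0.10, adjusted p = 0.365), 1 of which was called higher in DCs. Of the wider list, 26 genes were higher and 11 lower in DCs, where 22.4% of all genes tested were called higher and 30.3% lower. Gm2a, the cofactor that presents GM2 ganglioside to hexosaminidase (2.38 ± 0.08), Fuca1 (1.62 ± 0.08) and Slc11a1 (2.08 ± 0.15) led the higher genes. Acp5 (-1.69 ± 0.11), Cd164 (-1.27 ± 0.09) and Smpd1, the acid sphingomyelinase (-1.07 ± 0.08), led the lower ones.

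Lymphocytes differed among themselves as well. Of the 36 genes, 16 were higher and 7 lower in B cells than in the mean of both T cell groups, where 13.1% of all genes tested were called higher and 13.9% lower. Grn led the higher genes, with a mean of 8334 ± 1717 in B cells against 1051 ± 195.0 in CD8 and 1443 ± 257.2 in CD4 T cells (2.71 ± 0.14, adjusted p = 4.4e-13). Lamp2 (1.67 ± 0.15), Atp6v0b (1.22 ± 0.11), Naaa (1.13 ± 0.17), Hexa (1.04 ± 0.12) and Asah1 (1.01 ± 0.09) were higher by more than 1 log2 unit. Psap (0.86 ± 0.14), Atp6ap1 (0.80 ± 0.10), Atp6v0d1 (0.79 ± 0.11), Tcirg1 (0.74 ± 0.14), Naglu (0.65 ± 0.12), Atp6v1b2 (0.56 ± 0.11), Ppt1 (0.51 ± 0.13), Tpp1 (0.48 ± 0.10), Man2b1 (0.41 ± 0.10) and Atp6v1a (0.36 ± 0.13) followed. As the mean of their probe sets, Ppt1 (0.23, adjusted p = 0.264) and Man2b1 (0.32, adjusted p = 0.134) were not called. Of the 16 genes, 6 were pump genes.

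Lower in B cells were Npc2 (-1.88 ± 0.15, adjusted p = 9.89e-10), Lipa (-1.10 ± 0.18), Atp6v1d (-0.73 ± 0.09), Arsb (-0.61 ± 0.15), Glb1 (-0.50 ± 0.17), Scarb2 (-0.42 ± 0.13) and Laptm5 (-0.38 ± 0.11). Arsb was not called as the mean of its probe sets (-0.27, adjusted p = 0.166). Grn and Npc2, soluble proteins of the same compartment, were at opposite ends, as the plot of both lymphocyte contrasts shows. B cell replicate 3, the array with the raised Jchain signal, was the highest B cell array for Grn (10304.4, against 7157.8 and 7538.4). It was also the highest for Npc2 (6564.6, against 4119.1 and 4349.3). The part of plasma cells in these values was not tested. Atp6v0a1 was not called on the probe set used (-0.54 ± 0.23, adjusted p = 0.0963), whereas its dimmer probe sets were called higher in B cells, so its direction there depends on the probe set. In the wider list 14 genes were higher and 11 lower in B cells, where 13.1% of all genes tested were called higher and 13.9% lower.

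Between T cells, Gusb was called higher and Lamp2 lower in CD8 than in CD4 T cells, where 1.63% of all genes tested were called higher and 1.63% lower. Gusb differed by 0.48 ± 0.12 (adjusted p = 0.0277) on the CD8 and CD4 T cell arrays given above, which did not overlap. Lamp2 averaged 730.4 ± 222.8 in CD8 and 1210.0 ± 159.2 in CD4 T cells (-0.72 ± 0.17, adjusted p = 0.0158). Neither call held under every array left out, with an adjusted p of 0.154 for Gusb without CD4 replicate 3 and of 0.105 for Lamp2 without CD8 replicate 2. Lipa was the next gene, at -0.70 ± 0.21 (adjusted p = 0.0758). Of the wider list, Acp5 (0.78 ± 0.17) and Gnptg, a subunit of the enzyme that tags hydrolases for transport to the lysosome (0.93 ± 0.23), were higher in CD8 T cells.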

How the data were processed

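RNA of 7 sorted cell groups from mouse spleen was measured on 3 arrays per group. The deposited probe set values are linear intensities. GCOS and MAS5 produced them according to the submitters' processing notes (versions not given in the sources used here). Since every array's 2% trimmed mean was 500, the authors' values had been scaled to one brightness, with array medians between 121.9 and 204.4. The number of arrays limits the precision.

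Probe sets were named by the platform annotation where it gave 1 symbol (34945 of 45101). A probe set was kept when at least 3 arrays exceeded 156.3, the table's median, and the one with the highest mean stood for its gene. The working scale was log2(signal + 48.6), with the 25th percentile as offset, which understates the change of dim genes. A single linear model with a mean per group was fitted over the 21 arrays (limma 3.58.1, R 4.3.3, trended eBayes, 14 residual degrees of freedom). Two-sided tests were used, with Benjamini-Hochberg adjustment over 13284 genes and calls under 0.05. The fit was tested on simulated data. Mean signals are given with standard deviations and log2 differences with standard errors.

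All members were to be named, and array values were given for the 3 called members with the smallest adjusted p per direction and contrast until 12 were reached. Of the wider list, up to 3 genes per direction were named in the subset and DC contrasts; others named there were all those called. Alternatives covered scaling, offset, filter, probe set choice, samples in the fit, the replicate number as a block, and arrays left out. Members, lists and tests were chosen with earlier results of these data known. Tfeb, which the promoter motif concerns, and Atp6v0a2 were named after their values were seen. Promoter sequences are from RefSeq on GRCm38.p6.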

Additional observations from a re-analysis of the deposited data

How the results depend on the processing

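With 3 arrays in a group, differences well beyond their standard error could miss a call, as that of Neu1 between the wild-type subsets did. A gene not called is thus not shown to be equal, and dim probe sets such as that of Gla were the least precise. Of the calls in the report, 14 of 21 between the subsets in Flt3L mice, 12 of 19 between those in wild-type mice, 22 of 25 between DCs and lymphocytes and 16 of 23 between B and T cells were made under every alternative run, against 0 of 1 for Flt3L against wild-type DEC205 DCs and 0 of 2 between T cells. The cause of the changes below was not tested, other than that fewer arrays were fitted where some were left out.

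Without both arrays that held transcripts of the other subset, 3 of 36 genes (6 in all arrays) were higher in 33D1 DCs of Flt3L mice and 2 (4 in all arrays) in those of wild-type mice. Leaving out 1 array at a time, the number higher in 33D1 DCs of wild-type mice ran from 2 (without DEC205 replicate 1) to 4. In 33D1 DCs the number higher in Flt3L mice ran from 0 to 2 (without replicate 1 of Flt3L mice). In DEC205 DCs the number higher in Flt3L mice ran from 0 to 1 (without wild-type replicate 1) and was 1 after quantile normalization. The number lower there ran from 0 (without replicate 2 or 3 of Flt3L mice) to 2 (without replicate 1), and was 2 after quantile normalization, 0 with the mean of a gene's probe sets, 0 with only the contrast's groups in the fit and 0 without both arrays. Between T cells the number higher in CD8 T cells ran from 0 (without any CD8 array or CD4 replicate 1 or 3) to 1, and was 0 with only these groups in the fit. The number lower ran from 0 (without CD8 replicate 1 or 2 or CD4 replicate 1 or 3) to 1, and was 2 after quantile normalization and 0 with the mean of a gene's probe sets.

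With the mean of a gene's probe sets, Atp6v0a1 changed sign to 0.32 (adjusted p = 0.0411) in DCs against lymphocytes and to 1.19 (adjusted p = 1.31e-05) in B against T cells, and Laptm5 to 0.00081 (adjusted p = 0.997) in B against T cells. Between B and T cells, Scarb2 lost its call without B cell replicate 2 or 3 (adjusted p up to 0.138), Laptm5 without B cell replicate 1 (0.0688), Glb1 without B cell replicate 1 or 2, CD4 replicate 2 or 3 or CD8 replicate 2 or 3 (up to 0.233), and Atp6v1a without B cell replicate 1 or 3, CD4 replicate 2 or CD8 replicate 1 or 2 (up to 0.213). Between the subsets of Flt3L mice, Cd68 lost its call without replicate 1 or 3 of either subset (adjusted p up to 0.0688), Lamp2 without any 33D1 array or DEC205 replicate 2 or 3 (up to 0.131), and Atp6v1d without any 33D1 array or DEC205 replicate 1 or 2 (up to 0.18). In wild-type mice Atp6v1b2 lost it without 33D1 replicate 2 or 3 or DEC205 replicate 1 or 3 (up to 0.161), Atp6v1d without the same arrays (up to 0.213), Tcirg1 without any 33D1 array or DEC205 replicate 1 or 3 (up to 0.216), and Mcoln1 without 33D1 replicate 3 too (0.08).

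Groups share replicate numbers. Deviations of same-numbered arrays of DC groups gave r across genes from -0.19 to 0.34 in 18 pairs (median 0.06). Those of other numbers gave -0.34 to 0.42 in 36 pairs (median -0.03), and the numbers were not taken as pairs. Some members did share a pattern. Replicate 1 was the lowest array in every DC group for Psap, Grn, Naaa, Laptm5, Tcirg1 and Mcoln1, and the highest for Atp6v0b. How often either pattern holds over all genes tested was not counted. Whether same-numbered arrays shared a batch was not tested. With the replicate number as a block, Atp6v1d was not called between the subsets in Flt3L (adjusted p = 0.0512) or wild-type mice (0.0551), nor Tcirg1 in wild-type mice (0.0553), nor Glb1 between B and T cells (0.0509). With the block, the subset comparison called 6 genes higher and 14 lower in 33D1 DCs for Flt3L mice, against 3 and 14 for wild-type mice.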
